A study of Mus musculus with 24 samples.

Results

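The genes described here carry pyruvate and branched-chain keto acids into the mitochondrion and burn them in the tricarboxylic acid (TCA) cycle. The list holds 38 genes: enzymes of the cycle, the pyruvate dehydrogenase (PDH) complex with its kinases and phosphatases, the mitochondrial pyruvate carrier, pyruvate carboxylase, malic enzymes, the enzymes of the malate-aspartate shuttle, cytosolic citrate and isocitrate enzymes, and the branched-chain keto acid dehydrogenase (BCKDH) complex. The rule picks probes by their gene name and uses no difference between the groups. On the array they had 56 of 55681 probes. A probe counted as measured when its Cy5 signal averaged more than 2 times the local background over the 24 arrays, which left 46 probes of 34 genes. *Aco1* (1.68 times background), *Idh1* (1.85), *Pdk3* (1.16) and *Me2* (at most 1.41) stayed below this limit. *Pdp2* (2.06), *Dbt* (2.62), *Pdk1* (2.91) and *Suclg2* (3.55) lay just above it.

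All samples were whole *M. gastrocnemius*, the large calf muscle, of male C57BL/6JOlaHsd mice that arrived at 10 weeks of age, ate a low-fat diet (10% of energy) for 3 weeks and then a high-fat diet (40% of energy) for 6 weeks, and were fasted during the exposure. The 12 Norm mice breathed 20.9% oxygen and the 12 Hypox mice 12% oxygen for 6 h. The comparison asks how a short drop in oxygen changes the transcripts of the muscle. Each mouse had an array of its own, on which its Cy5-labelled RNA competed with a Cy3-labelled pool of all samples, and each value below is a log2 ratio of mouse to pool unless stated otherwise. The 24 arrays lay on 6 slides of 4, with 2 Norm and 2 Hypox arrays on each. Mean Cy5 signals per array lay between 58.3 and 933 for Norm mice and between 63.5 and 1014 for Hypox mice, and slide 1 was the dimmest and slide 6 the brightest.

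Pyruvate made by glycolysis enters the mitochondrial matrix through a carrier built from MPC1 and MPC2. There the PDH complex turns it into acetyl-CoA, unless PDH kinases have phosphorylated and silenced the complex; PDH phosphatases undo this. Citrate synthase joins acetyl-CoA to oxaloacetate, and the cycle then feeds electrons to the respiratory chain, which needs oxygen. In hypoxic cells, *Pdk1* is a textbook target of the hypoxia-inducible factors, and its product holds pyruvate back from the cycle. Muscle is also a main site of branched-chain amino acid breakdown, in which BCKDH commits the carbon and its kinase BCKDK restrains it.

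Probes of 60 bases report these transcripts, and the ones on which the results turn are shown by a stretch of 30 bases, read 5′ to 3′, with mm9 positions. The array still calls *Mpc1* by its old symbol *Brp44l* and *Mpc2* by *Brp44*. *Mpc1* had 2 probes on the plus strand that start 258 bases apart in the transcript, at chr17:8490447-8490506 and chr17:8490189-8490248. The *Mpc2* probe spans chr1:167409699-167411082, longer than the probe itself, so the probe crosses an intron.
Mpc1 probe 1: cagtgataacaagtatcggtgttttccata
Mpc1 probe 2: gctgccttatcaatgctaaaccttatttgt
Mpc2 probe 1: cggatttggagatataaccaagaactcaaa

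Among further members whose call turned on the slides or on single arrays, 4 are shown, each with 1 probe. Those of *Cs* (chr10:127799428-127799487), *Mdh2* (chr5:136266157-136266216) and *Pdk1* (chr2:71739688-71739747) are on the plus strand, and that of *Suclg2* (chr6:95424712-95424771) is on the minus strand. Their first 30 bases follow.
Cs: tgttgagatggacacactgtaaacccctgg
Mdh2: tagtttgcgttgatggagggtgttgagtca
Pdk1: agccaaatcatgtgacatggcacaaaatag
Suclg2: tgtgcatacatacagtatttaaagccagat

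Some genes had probes that gave different answers. The probes of *Pdhb*, on the minus strand at chr14:8998548-8998607 and chr14:8998505-8998562, even overlap: the 15 bases in capitals are the end of the first (last 30 bases shown) and the start of the second (first 30 bases shown). For *Pdp1*, the brightest probe at chr4:11885487-11885546 lies 2168 bases downstream in the transcript of the third at chr4:11887655-11887714.
Pdhb probe 1: ctaagaagtatattaTCTACATTTGCTGTT
Pdhb probe 2: TCTACATTTGCTGTTtaattgttttgataa
Pdp1 probe 1: ggtttgaatgctgtctatggttagagaaac
Pdp1 probe 3: attaccctggcagttcttcagttggaaggg

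Across the 34 measured genes, 1 fell and none rose in Hypox at an unadjusted *P*-value under 0.05, the threshold of the study (limma). *Mpc1* was the gene that fell. Over all 9139 genes tested, 7.12% were called higher and 5.03% lower at the same threshold, beside 0% and 2.94% of the members. With Benjamini-Hochberg adjustment over all genes 0.339% of them passed 0.05 in this fit, and none of the members did. The median log2 fold change was 0.037 over the members and 0.029 over all genes, with 20 members above 0 and 14 below. In the deposited values 31 members were above 0, and after median centring all 34, with medians over all genes of 0.085 and 0.25.

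How small a change could have been seen differed between members. For 28 of the 33 genes that were not called, the 95% interval lay inside 0.5 on the log2 scale in either direction (1.41-fold). *Cs*, *Mdh1*, *Mdh2*, *Pdha1* and *Dlat* had intervals reaching beyond it. These intervals are those of the main fit, where the median SE over the members was 0.11. It was 0.31 in the deposited values (limma) and 0.50 after median centring. Spread between Norm mice ran from an SD of 0.187 for *Fh1* to 0.821 for *Mdh1*.

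**Figure D1:**
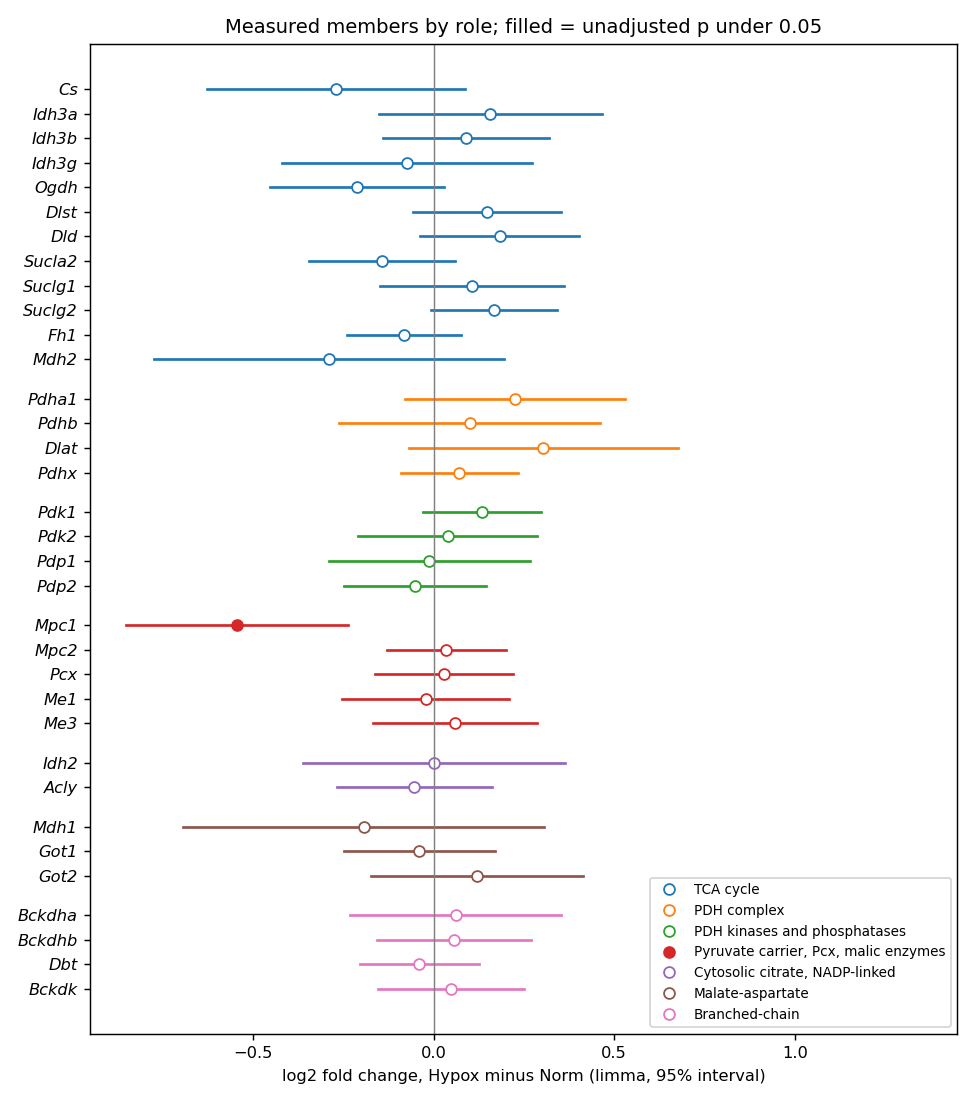
Log2 fold change of Hypox against Norm (x axis) for the 34 measured genes, by role, as points with 95% intervals from limma (12 arrays a group, 11 Norm arrays for *Mdh2*). Only *Mpc1*, at -0.54, has an interval that leaves out 0.

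In the main fit *Mpc1* of the pyruvate carrier was called lower and *Mpc2* was not. This 1 call among 34 members (2.94%) stood beside 5.03% of all genes called lower. *Mpc1* ratios in Norm mice began at 0.027, had a median of 0.63 and reached 1.82. In Hypox mice they began at -0.27, had a median of 0.25 and reached 0.83. The Norm mean was 0.76 ± 0.44 (SD, n = 12) and the Hypox mean 0.21 ± 0.34 (SD, n = 12). The groups overlapped, but 11 of 12 Hypox mice lay under the Norm median, 4 Hypox mice lay under every Norm mouse and 4 Norm mice above every Hypox mouse. The log2 fold change was -0.54 (SE 0.15, 95% interval -0.85 to -0.24, a fold of 0.686), with *P* = 0.00114 and adjusted *P* = 0.105 in limma. Its *P*-value was number 99 in order among the 9139 genes.

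The second *Mpc1* probe moved the same way. Norm mice went from -0.53 through a median of 0.061 to 1.05 and Hypox mice from -0.63 through -0.36 to 0.30, a log2 fold change of -0.41 (SE 0.15, *P* = 0.00866, adjusted *P* = 0.187 over all probes). Over all 14312 probes past the filter, 7.5% were called higher and 6.57% lower at an unadjusted *P*-value under 0.05, and of the 46 member probes 1 was called higher and 3 lower. The decreases of both *Mpc1* probes come from the same RNA, so they check the probe and not the mice.

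*Mpc2*, the partner subunit, did not share this pattern. Norm mice went from -0.37 through -0.036 to 0.48 and Hypox mice from -0.17 through 0.056 to 0.34, with a log2 fold change of 0.035 (95% interval -0.13 to 0.20, *P* = 0.664). The difference between the subunits within each array, *Mpc1* minus *Mpc2*, averaged 0.74 ± 0.61 (SD, n = 12) over Norm mice and 0.16 ± 0.28 (SD, n = 12) over Hypox mice. That is a change of -0.58 (95% interval -0.98 to -0.18, permutation test with 100000 resamples, two-sided *P* = 0.00374, adjusted *P* = 0.0187 over 5 such differences). This difference was chosen after its values were seen, and the adjustment over 5 differences does not cover that choice.

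Slides and normalization bear on the carrier result. Within slides 1 to 6 the mean Hypox minus mean Norm of *Mpc1* was -0.26, -1.24, -0.53, -0.47, -0.80 and 0.040, lower on 5 of 6. Its second probe was lower on 6 of 6, though by only -0.00023 on slide 6. Leaving out any 1 array kept the value between -0.61 and -0.45, and each of the 24 fits still called it. The call ended under median centring and in the deposited values. In the table deposited by the authors the log2 fold change of *Mpc1* was -0.13 (SE 0.43, *P* = 0.759), and with ratios only median-centred it turned to 0.054 (SE 0.64, *P* = 0.934), where the median over all genes itself stood at 0.25. The change in *Mpc1* minus *Mpc2* within arrays was -0.55 in the deposited table, -0.51 after median centring, -0.51 in the Cy5 channel alone and -0.44 in the scanner's processed signals. Permutation *P*-values lay between 0.00677 and 0.0182. They come from the same arrays and from a difference chosen after its values were seen, so they do not test the *Mpc1* decrease anew.

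**Figure D2:**
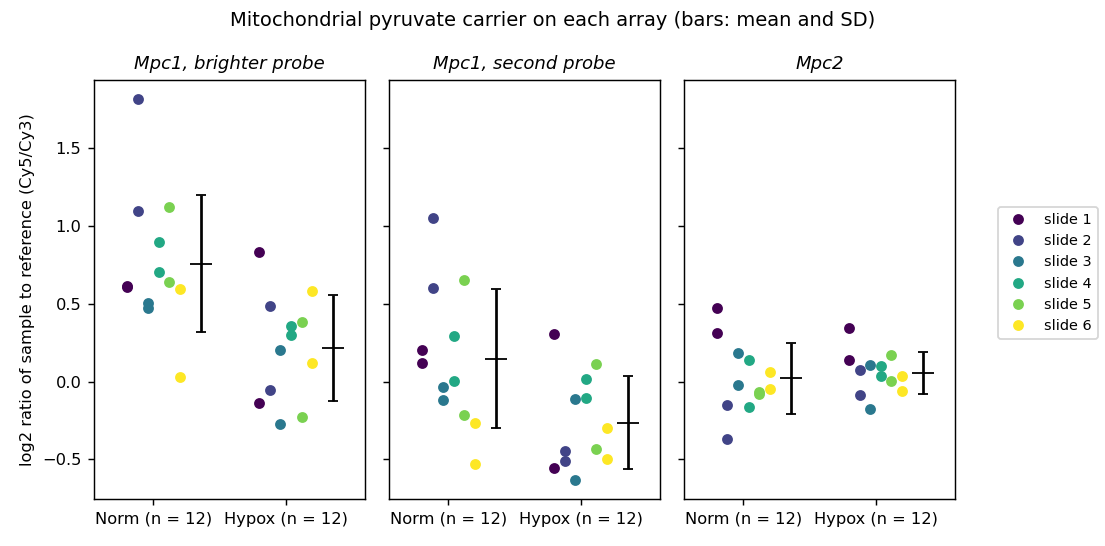
Log2 ratio of mouse to pool (y axis) on each array for both *Mpc1* probes and the *Mpc2* probe, by group and coloured by slide, with the mean and SD beside the points. Hypox points of *Mpc1* sit lower (means 0.21 against 0.76 for the brighter probe), and those of *Mpc2* lie within the Norm range.

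Brightness also went with the direction. *Mpc1* was a bright probe, at 374 times background and a mean log2 intensity of 13.73. Among the 379 genes with a mean log2 intensity of 13 or more, the median log2 fold change was -0.16, 14.8% were called lower and 0.792% higher, and *Mpc1* had the 24th lowest fold change. The other members this bright were *Cs*, *Idh2*, *Idh3g*, *Mdh1*, *Mdh2* and *Ogdh*, and of these 7 genes 6 had values under 0, against 1 in the deposited values and 0 after median centring. The part of brightness in these values was not tested.

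**Figure D3:**
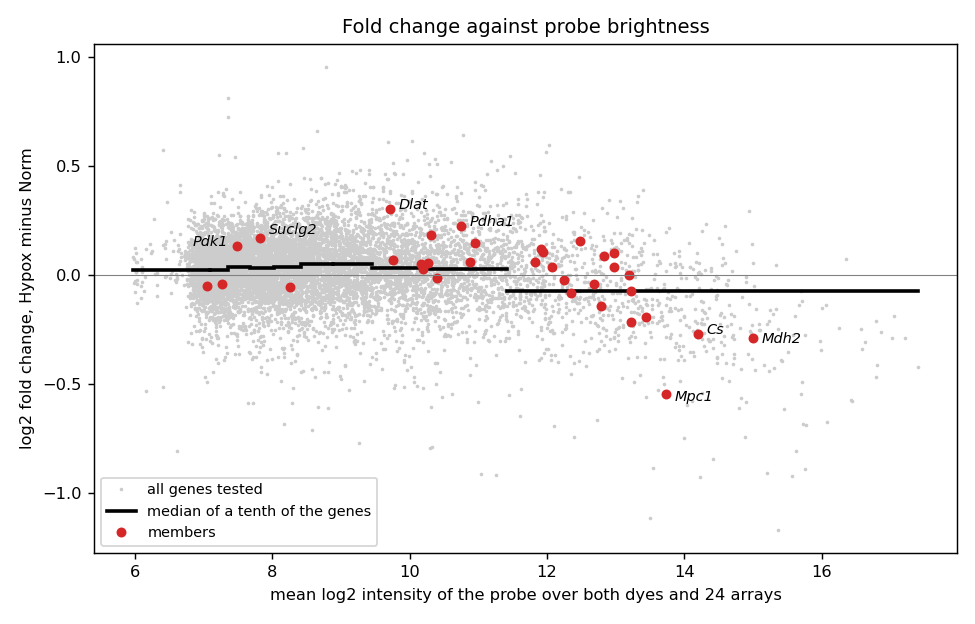
Log2 fold change of Hypox against Norm (y axis) against the mean log2 intensity of the probe over both dyes (x axis) for all 9139 genes (grey) and the 34 members (red), with the medians of 10 equal classes of brightness as black lines. The brightest class has a median of -0.074 and holds 19 of the members.

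The other routes for pyruvate and malate showed no call. *Pcx*, pyruvate carboxylase, which refills oxaloacetate, had a log2 fold change of 0.028 (95% interval -0.16 to 0.22). *Me1*, cytosolic malic enzyme and a source of NADPH, had -0.022 at its brightest probe, and its other probes gave -0.028 and -0.18. *Me3*, a mitochondrial malic enzyme, had 0.059 and 0.099 at its probes past the filter.

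Every subunit gene of the PDH complex had a value above 0, and none passed the test; 4 of the 5 were above 0 with processed signals and with the mean of the probes. *Dlat*, the acetyltransferase core, had the highest value of all members: Norm mice went from -0.39 through a median of 0.095 to 0.67 and Hypox mice from -0.47 through 0.36 to 2.01. Most Hypox mice, 11 of 12, lay above the Norm median, while the lowest Hypox mouse lay under all Norm mice. The log2 fold change was 0.30 (SE 0.18, *P* = 0.105). *Pdha1*, the catalytic alpha subunit, lay between -0.27 and 0.43 in Norm mice (median 0.017) and between -0.77 and 1.44 in Hypox mice (median 0.27), with 11 of 12 Hypox mice again above the Norm median and a log2 fold change of 0.23 (SE 0.15, *P* = 0.139). Without Hypox mouse 12 both were called, *Dlat* at 0.39 (*P* = 0.0319) and *Pdha1* at 0.32 (*P* = 0.0169), and without the dimmest slide *Pdha1* was called at 0.34 (*P* = 0.0189). Hypox mouse 2, the highest for both genes, moved them the other way: without it *Dlat* had 0.16 (*P* = 0.236) and *Pdha1* 0.12 (*P* = 0.317). In the scanner's processed signals they had 0.077 and 0.033.

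The rest of the complex had smaller values. *Pdhx*, which tethers the E3 subunit, had 0.071 (95% interval -0.092 to 0.23). *Dld*, the E3 dihydrolipoamide dehydrogenase shared by the PDH, 2-oxoglutarate and branched-chain complexes, had 0.18 (*P* = 0.0992) and 0.20 at its 2 probes, and without Hypox mouse 2 the first was called at 0.23 (*P* = 0.035). Over the 5 subunit genes the median was 0.18, beside 0.029 for all genes.

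*Pdhb*, the catalytic beta subunit, had the overlapping probes printed above. At its brighter probe Norm mice went from 0.084 through 0.68 to 1.23 and Hypox mice from -0.42 through 0.86 to 2.08 (log2 fold change 0.099, SE 0.18, *P* = 0.577). At the second, Norm mice went from -0.034 through 0.15 to 0.30 and Hypox mice from -0.38 through 0.036 to 0.39, and the probe was called lower at -0.16 (SE 0.074, *P* = 0.0381, adjusted *P* = 0.319). It was lower on 6 of 6 slides, by only -0.0078 on slide 2 and -0.0073 on slide 6, whereas the brighter probe was higher on 4. The change in the difference between the probes, -0.26 (95% interval -0.71 to 0.19), was within its error (permutation *P* = 0.252).

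The kinases and phosphatases that switch the PDH complex were mostly dim. *Pdk1*, the kinase induced in many hypoxic cells, lay between -0.56 and 0.12 in Norm mice (median -0.21) and between -0.30 and 0.13 in Hypox mice (median -0.14). The groups overlapped, although 11 of 12 Hypox mice lay above the Norm median and 5 Norm mice lay under every Hypox mouse. The log2 fold change was 0.13 (95% interval -0.029 to 0.30, *P* = 0.103). The probe passed the scanner's test against background on 9 of 12 arrays in each group. Without the dimmest slide, whose difference was -0.20, the value was 0.20 (*P* = 0.0273), and without Norm mouse 4 it was 0.16 (*P* = 0.0433).

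*Pdk2*, the most widespread of these kinases, had 0.039 at its bright probe (88.1 times background, 95% interval -0.21 to 0.29) and 0.16 at a probe 7.51 times background. *Pdk4*, the kinase best known for its rise in fasting and a gene outside the member list, had 0.085 (*P* = 0.572). *Pdp1*, the calcium-sensitive phosphatase, gave -0.012, 0.12 and 0.21 at its 3 probes, of which the third and dimmest (7.07 times background) was called higher (SE 0.088, *P* = 0.0217, adjusted *P* = 0.259). There Norm mice went from -0.78 through -0.26 to 0.061 and Hypox mice from -0.34 through -0.077 to 0.088. At the brightest probe Norm mice went from -0.74 through -0.31 to 0.86 and Hypox mice from -0.51 through -0.20 to -0.023. The change in the difference between them was 0.23 (95% interval -0.11 to 0.57, permutation *P* = 0.18). *Pdp2*, the other phosphatase, had -0.051, and its probe passed the scanner's background test on 5 of 12 arrays in each group.

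**Figure D4:**
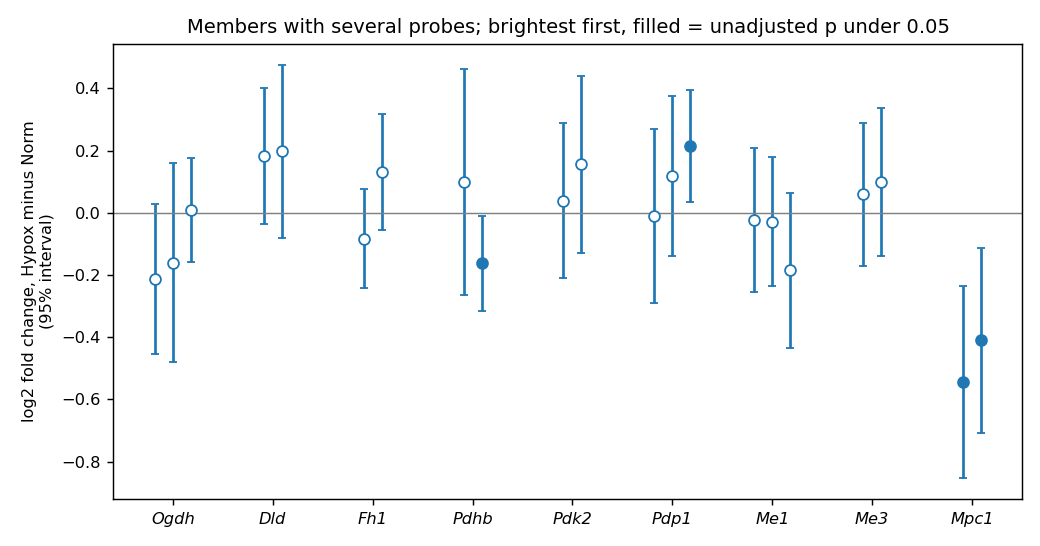
Log2 fold change of Hypox against Norm with 95% intervals (y axis) for each probe past the filter of the 9 members with several, brightest probe first, filled where the unadjusted *P*-value was under 0.05. Both *Mpc1* probes are filled, and the filled probes of *Pdhb* (-0.16) and *Pdp1* (0.21) stand beside unfilled ones of the same gene.

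The promoters of *Pdk1* and *Mpc1* were read for the core letters bound by hypoxia-inducible factors. These genes are the named target and the member called lower in the main fit. The 250 bases before the first listed start of each are printed from RefSeq (GRCm38.p6), at chr2:71872974-71873223 and chr17:8283537-8283786, both on the plus strand, with ACGTG or GCGTG on either strand in capitals.
Pdk1 promoter: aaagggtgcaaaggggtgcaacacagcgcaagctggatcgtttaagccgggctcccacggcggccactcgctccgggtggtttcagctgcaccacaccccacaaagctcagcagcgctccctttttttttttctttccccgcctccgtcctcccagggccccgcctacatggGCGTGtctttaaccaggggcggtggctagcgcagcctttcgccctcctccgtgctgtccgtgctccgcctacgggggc
Mpc1 promoter: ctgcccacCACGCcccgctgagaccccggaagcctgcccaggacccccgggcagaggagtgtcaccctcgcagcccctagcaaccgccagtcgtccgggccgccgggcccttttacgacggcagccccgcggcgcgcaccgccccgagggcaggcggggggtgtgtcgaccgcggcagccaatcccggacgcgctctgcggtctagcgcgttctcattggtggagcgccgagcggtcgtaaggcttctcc

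Each of these windows held 1 match, and the windows before the second listed start of each gene held 0. These letters are common: 38.6% of all 32851 promoter windows of this length held ACGTG or GCGTG. Of the 46 windows listed for 34 of the 38 member genes, measured or not, 28 (60.9%) did. This difference in share was not tested. A match is a string of letters and not a bound site.

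In the cycle itself, of 12 measured genes 6 had values above 0 and 6 below, none was called, and the median was 0.0072. *Cs*, citrate synthase, the entry enzyme, lay between 0.12 and 1.96 in Norm mice (median 0.56) and between -0.037 and 1.21 in Hypox mice (median 0.28). The groups overlapped, with 3 Hypox mice under every Norm mouse. Its log2 fold change was -0.27 (SE 0.17, *P* = 0.131). *Mdh2*, mitochondrial malate dehydrogenase, closes the cycle and was the brightest member (842 times background). The 11 Norm mice with a reading, 1 being dropped as an outlier spot, went from 0.33 through 0.69 to 2.72 and Hypox mice from 0.19 through 0.54 to 1.71 (log2 fold change -0.29, SE 0.24, *P* = 0.232).

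With slide as a block the picture shifted for 3 genes. *Cs* was then called lower (*P* = 0.00857), as was *Mdh2* at -0.25 (*P* = 0.0134), and *Suclg2* was called higher (*P* = 0.0454), beside *Mpc1* (*P* = 9.16e-04). In that fit 7.97% of all genes were called higher and 6.14% lower, against 1 and 3 of 34 members, and the adjusted *P*-values were 0.182 for *Cs*, 0.218 for *Mdh2* and 0.336 for *Suclg2*. *Cs* differences within slides 1 to 6 were -0.52, 0.035, -0.061, -0.50, -0.35 and -0.23. Those of *Mdh2* were -0.77, 0.061, -0.17, -0.29, -0.15 and -0.16. Without the dimmest slide *Cs* was at -0.22 and called (*P* = 0.0403), and *Mdh2* was at -0.16 and not called. Without Norm mouse 4 *Cs* came to -0.16 (*P* = 0.296) and *Mdh2* to -0.12 (*P* = 0.555). The direction of both turned with the scaling: *Cs* had 0.20 and *Mdh2* 0.28 in the deposited values, and 0.37 and 0.58 after median centring, none of them called. In the processed signals *Cs* had -0.062 and *Mdh2* -0.029, and in the Cy5 channel alone -0.031 and -0.025.

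*Suclg2*, the GTP-forming subunit of succinyl-CoA synthetase, had a dim probe on which Norm mice went from -0.68 through -0.37 to 0.080 and Hypox mice from -0.48 through -0.16 to 0.14. Its log2 fold change was 0.17 (95% interval -0.0072 to 0.34, *P* = 0.0596), with 10 of 12 Hypox mice above the Norm median. It passed 0.05 without Norm mouse 2, 4 or 12 or Hypox mouse 8 or 9, at 0.19 to 0.21, and in 6 of 13 other alternatives, among them the processed signals (0.49) and the Cy5 channel alone (0.28). *Sucla2*, the ATP-forming subunit that predominates in muscle, had a value of the other sign, -0.14 (95% interval -0.34 to 0.058, *P* = 0.156), called without Hypox mouse 2 at -0.19 (*P* = 0.0378), whereas the deposited values gave 0.22. *Suclg1*, the subunit both share, had 0.11 (95% interval -0.15 to 0.36).

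**Figure D5:**
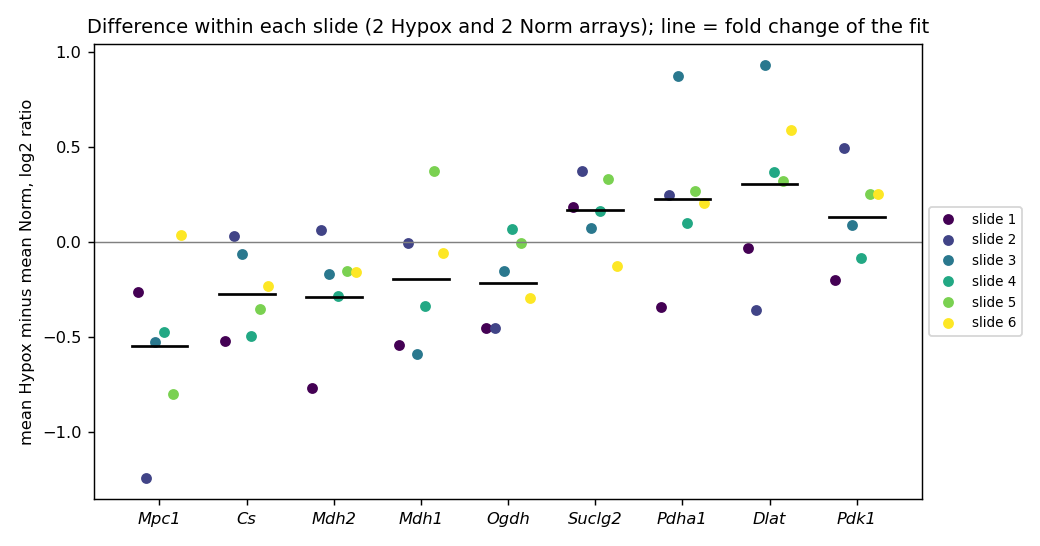
Mean Hypox minus mean Norm log2 ratio (y axis) within each of the 6 slides for 9 members, coloured by slide, with the fold change of the fit as a black line. *Mpc1*, *Cs*, *Mdh2*, *Mdh1* and *Ogdh* lie below 0 on 5 of 6 slides, and *Suclg2* and *Pdha1* above it on 5.

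The dehydrogenases that release carbon dioxide in the cycle were not called. *Idh3a*, *Idh3b* and *Idh3g*, the subunits of NAD-dependent isocitrate dehydrogenase, had 0.16, 0.089 and -0.074. *Ogdh*, the E1 subunit of the 2-oxoglutarate dehydrogenase complex, had -0.21 (95% interval -0.45 to 0.028, *P* = 0.0808) and -0.16 at its bright probes, and 0.0095 at a probe 2.35 times background. Without Norm mouse 8 the first was called at -0.25 (*P* = 0.0482), and without Hypox mouse 4 at -0.26 (*P* = 0.0326), whereas the deposited values gave 0.17. *Dlst*, the E2 core of that complex, had 0.15 (95% interval -0.057 to 0.35).

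*Fh1*, fumarase, had the smallest spread between Norm mice and probes of opposite sign, -0.083 and 0.13, neither called. The change in the difference between these probes was 0.21 (95% interval 0.0046 to 0.42, permutation *P* = 0.0445, adjusted *P* = 0.111 over the 5 differences).

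Other cycle enzymes, which were not members, gave no call among 6 measured genes, with *Sdha*, the flavoprotein of succinate dehydrogenase, at -0.015. In a list of 7 other pyruvate genes none was called either, with *Ldha* at -0.19 (*P* = 0.422) and *Ldhb* at 0.21 (*P* = 0.312), the muscle-type and heart-type subunits of lactate dehydrogenase. The 6 measured genes for lipoate and thiamine, the cofactors of these complexes, gave no call.

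The malate-aspartate shuttle brings NADH equivalents into the matrix. *Mdh1*, its cytosolic malate dehydrogenase, lay between -1.01 and 2.35 in Norm mice (median 1.33) and between 0.11 and 1.56 in Hypox mice (median 0.98). The Norm range thus held every Hypox mouse. Its log2 fold change was -0.19 (95% interval -0.69 to 0.31, *P* = 0.435), and without Norm mouse 5, -0.39 (*P* = 0.032). Without Norm mouse 4 it was -0.088 (*P* = 0.71), and in the deposited values 0.20. *Got1* and *Got2*, the cytosolic and mitochondrial aspartate aminotransferases, had -0.040 and 0.12. Among 7 other shuttle genes *Slc25a22*, a glutamate carrier, was called higher at 0.17 (SE 0.082, *P* = 0.0452, adjusted *P* = 0.397), from a Norm median of -0.16 to a Hypox median of 0.017.

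NADP-linked and citrate enzymes showed no call among 2 measured genes. *Idh2*, the mitochondrial NADP-dependent isocitrate dehydrogenase, had 0.0018 (95% interval -0.36 to 0.36). *Acly*, which splits citrate for fat synthesis, had -0.053 (95% interval -0.27 to 0.16). *Idh1*, the cytosolic form, lay below the signal limit, and in a fit of all probes without that limit its value was -0.16 (SE 0.079, *P* = 0.0489, adjusted *P* = 0.614), while in the gene fit without the limit it was not called. *Aco1*, cytosolic aconitase, had 0.031 there.

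No gene of the BCKDH complex was called. *Dld*, its E3 subunit, is given above with the PDH complex (0.18, 95% interval -0.037 to 0.40). *Bckdha* and *Bckdhb*, its E1 subunits, had 0.062 and 0.056, *Dbt*, its E2 core, had -0.039, and *Bckdk*, its kinase, had 0.049. The 95% interval of *Bckdha* ran from -0.23 to 0.35. Among 18 other measured genes of branched-chain amino acid breakdown, *Mccc2*, a subunit of the leucine-pathway enzyme methylcrotonyl-CoA carboxylase, was called higher: Norm mice went from -0.46 through -0.13 to 0.20 and Hypox mice from -0.28 through 0.15 to 0.30, a log2 fold change of 0.24 (SE 0.084, *P* = 0.009, adjusted *P* = 0.235). Its partner *Mccc1* had 0.078 (*P* = 0.346). *Bcat2*, the aminotransferase that starts the pathway in muscle, had -0.038.

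Other cells in the whole muscle were followed by marker lists, since fewer cells of a type and less RNA per cell cannot be told apart here. Of 8 adipocyte markers *Plin1* and *Lep* lay below the signal limit. All 6 measured ones had values under 0 and 3 were called lower, *Car3*, *Cfd* and *Adipoq* (-0.58, -0.56 and -0.33). The *Car3* probe was 417 times background, against 34.9 for *Cfd* and 4.97 for *Adipoq*, and whether its RNA came from fat cells was not tested. The list mean lay between -0.52 and 0.66 on Norm arrays and between -0.75 and -0.054 on Hypox arrays. Of 8 genes listed for slow or oxidative fibres 7 had values above 0, and *Myh2* had -0.15. *Tnni1* and *Tnnc1* (0.61 and 0.44) were the 2 called higher. The list means lay between -1.93 and 0.48 on Norm arrays and between -0.26 and 0.35 on Hypox arrays. The 4 nerve markers followed had values under 0, *Mbp* at only -0.0011, and 2 were called lower, *Pmp22* and *Prx* (-0.41 and -0.28). The 8 muscle genes listed were all measured, 3 with values above 0 and 5 below (median -0.16). Only *Mylpf* was called, higher at 0.36, and *Myh4* had the lowest value, -0.58. With slide as a block 1 of the 8 was called higher and 2 lower. *Cdh5*, 1 of 3 measured endothelial markers, was called higher at 0.38, while *Kdr* and *Tie1* had -0.15 and -0.0043. *Sftpc*, the 1 measured of 6 lung markers, was called higher at 0.81. No red-cell (2) or macrophage (3) marker was called. The part of these shifts in the members' values was not tested.

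*Acly*, *Me1*, *Pcx*, *Idh1* and *Aco1*, which fat cells also use, were set against the mean of the adipocyte markers over the 24 arrays. That mean held all 6 measured markers, *Car3* among them. Pearson's r was 0.23, -0.13, 0.11, 0.38 and -0.20 in that order, with Spearman's rho of 0.20, 0.16, 0.054, 0.46 and -0.089. The lowest of the 5 adjusted permutation *P*-values was 0.341 for r and 0.125 for rho, both for *Idh1*. Without the 2 arrays farthest from the marker median r was 0.086, -0.057, -0.16, 0.33 and -0.17 in the same order. Within Norm mice it was 0.22, -0.13, -0.18, 0.26 and -0.44, and within Hypox mice 0.19, -0.28, 0.76, 0.11 and 0.11. The 0.76 belongs to *Pcx*, whose r turned sign between the groups and without those 2 arrays. These values within groups were not tested.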

How the data were processed

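RNA of 24 mice (12 Norm, 12 Hypox) was measured on 2-colour Agilent arrays. The authors scanned them with Agilent Feature Extraction 10.7.3.1 and deposited, per array, spot intensities (Cy5 and Cy3, mean and local background) with no normalization between arrays, and a table of normalized log2 values for 21335 probes, whose columns share a median of 6.58 and whose exact scaling is not given in the sources used here. That table correlated with log2 Cy5 at 0.967 to 0.999 and served as an alternative. The deposited log2 values were also tested with the methods' t-test. Dye labels of several Hypox samples name a dye other than Cy5, so Cy5 was taken as the mouse on every array, as the descriptions state.

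Intensities were background-corrected (normexp, offset 50) and loess-normalized within arrays in limma 3.58.1 (R 4.3.3). Outlier-flagged readings (7260) were dropped, spots of a probe averaged, and probes kept at a Cy5 signal over 2 times background with at most 4 arrays missing. No reading was saturated. Genes were named through RefSeq accession (27235 probes), symbol (3581) or synonym (565), and 24300 probes stayed unnamed. The brightest probe stood for a gene. The gene test was limma with no covariate, Benjamini-Hochberg adjusted over 9139 genes, and single differences used permutation tests. The script was tested on simulated data. Intensities carry no counts, so the number of arrays limits the precision.

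Every member is named. Those called, or with probes disagreeing on a call, are given with each group's range and median, except at the second *Pdp1* probe. Others singled out were chosen after their values were seen. The members and lists were chosen with earlier results of these data known. Slides were numbered in barcode order. Probe positions are those of the files (mm9). Some listed genes that are not members, and some probe sequences, are not reported here. Alternatives covered the signal and normalization, the deposited values, the filter, the probe rule, slide or replicate number as a block, array weights, the dimmest slide, and each array left out.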

Additional observations from a re-analysis of the deposited data

How the results depend on the processing

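Main counts were 0 members higher and 1 lower. Higher calls came to 2 with processed signals, 1 with Cy5 alone, 1 with the deposited values under the methods' t-test, 1 with no filter on dim probes, 1 with slide as a block, 2 with the replicate block, 3 with array weights, 2 without the dimmest slide and 2 with slide as a block and without that slide, the last setting chosen after seeing the data. Lower calls came to 0 with median centring and with the deposited values under limma or the methods' t-test, 3 with slide as a block, 3 with array weights, and 2 without the dimmest slide with or without slide as a block. With 1 array left out, higher calls ranged from 0 to 2 and lower calls from 1 to 2 of 34 members. Over all 9139 genes the same fits called 569 to 801 higher and 407 to 524 lower. Adjusted over all genes, 1 member passed 0.05 with array weights and 1 without Norm mouse 12.

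*Mpc1* reversed under median centring, at 0.054 (Brp44l). The deposited table gave -0.13 by both tests. Over 14 alternatives other than single arrays left out, 448 of 472 member values kept their side of the threshold without a called reversal, and 803 of 816 did with 1 array left out. Replicate numbers only number the mice: their deviations from the group means correlated from -0.20 to 0.51, with 3 of 12 pairs over 0.1 and 2 of 12 Norm mice closest to their own number. With the replicate number as a block, *Mpc1* stayed at -0.54, and *Dlat* (0.30) and *Suclg2* (0.17) were called higher. Array weights added *Dlat*, *Dld* and *Pdha1* above 0 and *Cs* and *Sucla2* below it, and processed signals added *Idh3a* and *Suclg2*. Over all genes, 651 higher and 460 lower calls became 31 and 0 with median centring, 276 and 212 with the deposited values in limma, 271 and 245 with the methods' t-test on them, 383 and 345 with Cy5 alone, 655 and 485 with processed signals, 728 and 561 with slide as a block, 692 and 499 with the replicate block, 798 and 482 without the dimmest slide, 815 and 510 with both of those slide settings, 1036 and 680 with array weights, and 1134 and 802 of 22328 genes with no filter. The cause of these shifts was not tested. The dim probes of *Pdk1*, *Pdp2*, *Dbt* and *Suclg2* are limited by signal over background.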
